A study of Homo sapiens with 6 samples.

Results

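The NDRG family (N-myc downstream regulated genes) has 4 members in the human genome, NDRG1, NDRG2, NDRG3 and NDRG4, and all 4 were found by gene symbol among the 17631 genes measured. They were read in 6 RNA-seq libraries of MDA-MB-231, a human triple-negative breast cancer cell line. In 3 libraries the cells had received vehicle, whose composition the labels do not give, and in 3 they had received PDBAG1 at 30 µM, both for 24 h. PDBAG1 is a synthetic peptide with a stretch of the metabolic enzyme GPD1 joined to a cell-penetrating sequence, and the comparison asks how these cells respond to it. All libraries came from 1 cell line, and the labels do not say whether the 3 libraries of a group were separate cultures, so the standard errors and p-values here measure only the spread between libraries. The family was chosen by the RNA level of NDRG1, which was already known to differ widely between these same groups. The members' differences are therefore given as descriptions, and a limma call on a member is not read as a test of it.

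NDRG proteins share an alpha/beta hydrolase fold but lack the residues that such enzymes need for catalysis. The name comes from repression of the founding gene by the oncoprotein N-myc. NDRG1 is a stress-response protein that is induced by hypoxia, by loss of iron and by DNA damage, is phosphorylated by the kinase SGK1, and is mutated in an inherited neuropathy. NDRG2 is mostly found in brain, muscle and other differentiated tissues and is often silenced in tumours. NDRG3 protein is hydroxylated by the oxygen sensor PHD2 and degraded through VHL, and it is stabilised when lactate binds to it. NDRG4 is mainly a gene of the brain and heart, and its promoter is frequently methylated in colorectal cancer.

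Promoter windows of RefSeq (GRCh38.p14, 250 bases before to 50 bases after a start site) were on hand for 2 members, with 5 windows for NDRG2 and 4 for NDRG4. They were searched on both strands for ACGTG and GCGTG, the core of the hypoxia response element to which HIF dimers bind. It was found in 3 of the 5 NDRG2 windows and in 1 of the 4 NDRG4 windows, against 48.4% of all 35116 windows of the same length. Of the NDRG2 windows with the core, 2 overlap and hold the same copy. One NDRG2 window with the core and the NDRG4 window with the core are shown to let the element be seen in its context. The capitals mark the core on either strand, and sequences run 5′ to 3′ on the strand of the gene.
NDRG2, chr14:21025012-21025311, minus strand: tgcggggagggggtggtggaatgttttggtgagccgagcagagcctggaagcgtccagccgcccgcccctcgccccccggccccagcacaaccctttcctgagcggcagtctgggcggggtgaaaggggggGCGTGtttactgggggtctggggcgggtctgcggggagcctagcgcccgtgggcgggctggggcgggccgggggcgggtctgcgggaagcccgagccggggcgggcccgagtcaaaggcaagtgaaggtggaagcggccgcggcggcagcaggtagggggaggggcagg
NDRG4, chr16:58463465-58463764, plus strand: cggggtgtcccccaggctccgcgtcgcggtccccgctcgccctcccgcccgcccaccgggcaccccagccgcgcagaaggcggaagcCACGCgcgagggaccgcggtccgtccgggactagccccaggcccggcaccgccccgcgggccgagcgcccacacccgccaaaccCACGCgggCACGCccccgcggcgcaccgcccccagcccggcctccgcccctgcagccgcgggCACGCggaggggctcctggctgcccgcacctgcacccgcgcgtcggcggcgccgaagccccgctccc
The NDRG4 window holds 4 copies, all on the strand opposite to the gene, a number reached by 4.4% of all windows. The NDRG2 window holds 1 copy. A match is a description of the letters and not a binding site.

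The genes lie on different chromosomes (GENCODE v44, GRCh38). NDRG1 (ENSG00000104419) occupies chromosome 8, 133237175 to 133302022, on the minus strand, and its canonical transcript has 16 exons and 3025 bases. NDRG2 (ENSG00000165795) lies on chromosome 14, 21016763 to 21070872, NDRG3 (ENSG00000101079) on chromosome 20, 36651766 to 36746090, both on the minus strand, and NDRG4 (ENSG00000103034) on chromosome 16, 58462846 to 58513628, on the plus strand. Their canonical transcripts are of like length, from 2971 bases for NDRG3 to 3208 bases for NDRG4. No stretch of 31 bases in any of the 4 canonical transcripts occurs in a transcript of another member. Reads of that length without mismatches could thus be told apart between the paralogues. Of the 31-base stretches of NDRG1, 24.1% also occur in ENSG00000289316, a long non-coding RNA annotated on the same strand within NDRG1, which is not among the genes measured. NDRG2 overlaps 8 annotated genes, 6 of them on the opposite strand, and whether reads were counted by strand is not stated in the sources used here.

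The values are TPM (transcripts scaled to the same total in each library), which are corrected for transcript length and can be compared between genes. The scaling removes the record of sequencing depth, which is therefore unknown for these libraries. Each library held 12392 to 12611 genes at 1 TPM or more, and the 12582 genes that reached this in at least 3 libraries were tested with limma on log2(TPM + 1). On this scale the change of genes with low TPM is understated. The SD of the log2 differences between libraries ran from 0.14 to 0.18 for pairs of 1 treatment and from 0.28 to 0.30 across treatments. The labels name both breast cancer tissue and the cell line as the source. VIM, the mesenchymal filament protein, stood at 4174 TPM or more in every library, while CDH1 (E-cadherin) stayed at or under 0.84 TPM and PGR (the progesterone receptor) at or under 0.06 TPM. ESR1 (the oestrogen receptor) ranged from 1.96 to 3.38 TPM. ERBB2 (HER2), which the marker list counted as low or absent, was present at 23.6 to 25.4 TPM. Of 10 markers of immune, endothelial, fat and muscle cells, 8 were in the table, and 7 of these were under 1.5 TPM in every library.

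The 1 tested marker of other cells was PECAM1, an endothelial adhesion molecule, which rose with treatment. It was at 3.78 to 4.08 TPM with vehicle and 7.87 to 9.15 TPM with PDBAG1 (limma adjusted p = 2.21e-06). The summed level of the 8 markers was 6.04 to 6.22 TPM with vehicle and 10.1 to 11.8 TPM with PDBAG1, and without PECAM1 it was 2.07 to 2.35 and 2.27 to 2.68 TPM. CDH5, the endothelial cadherin, was at 0.25 to 0.39 TPM with vehicle and 0.41 to 0.46 TPM with PDBAG1, too low to be tested, and CD163, a macrophage receptor, at 0.02 TPM or less. The part of PECAM1 in the NDRG values was not tested.

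NDRG1 was the member with the highest level in every library. With vehicle it was measured at 102.86, 104.93 and 95.44 TPM, and with PDBAG1 at 463.44, 483.54 and 435.90 TPM. The groups did not overlap, and the lowest PDBAG1 library stood 4.15-fold above the highest vehicle library. The means were 101 ± 4.99 and 461 ± 23.9 TPM (n = 3 each, SD), a 4.56-fold difference in TPM and on the log2 scale a difference of 2.18 with a standard error of 0.05. In the order of all 17631 genes by TPM, NDRG1 stood between places 1645 and 1837 with vehicle and between places 268 and 314 with PDBAG1. Its log2 fold change was the third highest of the 12582 genes tested. A higher level in bulk RNA does not tell more NDRG1 RNA in each cell from a larger share of cells with high NDRG1.

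NDRG3, the lactate-binding paralogue, came next. It was at 58.94, 54.08 and 52.67 TPM with vehicle and at 60.24, 63.46 and 60.75 TPM with PDBAG1. The groups did not overlap, but they nearly touched, with the lowest PDBAG1 library 1.02-fold above the highest vehicle library. The means were 55.2 ± 3.29 and 61.5 ± 1.73 TPM (n = 3 each, SD), and the log2 fold change was 0.15 (standard error 0.05), against a median of 0.03 over all genes tested.

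NDRG4 was measured at 3.29, 3.40 and 3.37 TPM with vehicle and at 3.04, 4.02 and 3.91 TPM with PDBAG1. The groups overlapped, since the first PDBAG1 library was below all vehicle libraries and the others above them. The log2 fold change of NDRG4 was 0.09 (standard error 0.11), within the spread of the libraries, and it was -0.02 under quantile normalization. It ranged from 0.03 without PDBAG1 replicate 2 to 0.19 without PDBAG1 replicate 1. NDRG2 had 0.16, 0.46 and 0.14 TPM with vehicle and 0.47, 0.31 and 0.22 TPM with PDBAG1. These values were under 1 TPM in every library, so NDRG2 did not enter the test, and its groups overlapped. Its difference of means was 0.09 on the log2(TPM + 1) scale, below the SD of 0.17 within the groups, and it ranged from 0.02 without PDBAG1 replicate 1 to 0.21 without vehicle replicate 2.

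**Figure D1:**
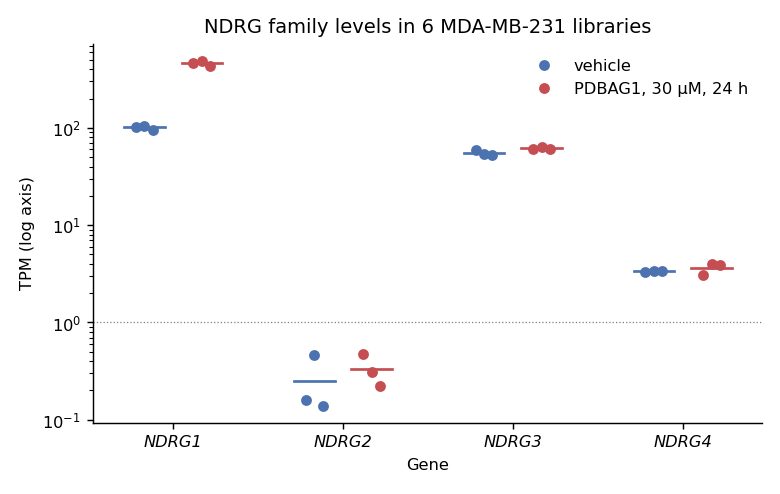
TPM of the 4 NDRG genes on a log axis, with 1 point for each library, a horizontal bar for the mean of each group, vehicle in blue, PDBAG1 in red and a dotted line at 1 TPM. The 3 PDBAG1 points of NDRG1 lie between 435.90 and 483.54 TPM, above all its vehicle points, while the points of NDRG2 and NDRG4 overlap between groups.

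Of the 3 members tested, 2 (NDRG1 and NDRG3) had a limma adjusted p under 0.05, where 37.6% of all genes tested did, and 2 had groups that did not overlap, as did 47.4% of all genes (27.2% higher and 20.2% lower with PDBAG1). With the added limit of a 1.5-fold change, 1 member (NDRG1) was called, where 3.34% of all genes were (2.86% higher and 0.477% lower). Because this contrast chose the family, nothing is read from these counts or from the member calls that follow. In 6 of 12 alternative fits NDRG3 was no longer called: with no expression filter, with median-of-ratios scaling, with the replicate number as a block, without vehicle replicate 2, without vehicle replicate 3 and without PDBAG1 replicate 2. When 1 library at a time was omitted, the log2 fold change of NDRG3 ranged from 0.12 to 0.20.

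The order of levels was NDRG1, NDRG3, NDRG4 and NDRG2 in all 6 libraries, and no neighbours in that order had overlapping ranges within a group. The distance between the leading paralogues differed between groups. NDRG1 had 1.75, 1.94 and 1.81 times the TPM of NDRG3 with vehicle, and 7.69, 7.62 and 7.18 times with PDBAG1. Because both genes are read in the same library, this ratio does not depend on how libraries were scaled to each other. NDRG3 had 16.5 ± 1.25 times the TPM of NDRG4 with vehicle and 17.05 ± 2.40 times with PDBAG1 (n = 3 each, SD), and these ranges overlapped.

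Summed over the 4 genes, the family had 165, 163 and 152 TPM with vehicle and 527, 551 and 501 TPM with PDBAG1. The mean sums were 160 ± 7.28 and 526 ± 25.3 TPM (n = 3 each, SD), a 3.29-fold difference. Of the difference of 367 TPM, 98.2% was NDRG1, 1.71% was NDRG3 and 0.0828% was NDRG4. Without NDRG1 the sum was 58.8 ± 3.20 TPM with vehicle and 65.5 ± 2.08 TPM with PDBAG1 (n = 3 each, SD). The groups did not overlap but nearly touched, at 62.39 TPM in vehicle replicate 1 and 63.75 TPM in PDBAG1 replicate 1. Most of this sum was NDRG3, so it largely repeats the values of that gene.

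NDRG1 held 62.3%, 64.4% and 63.0% of the summed NDRG TPM with vehicle and 87.9%, 87.7% and 87.0% with PDBAG1. The mean share was 63.2% ± 1.11 and 87.55% ± 0.451 (n = 3 each, SD), a difference of 24.35 percentage points. The share of NDRG3 was 34.5% ± 1.24 with vehicle and 11.7% ± 0.385 with PDBAG1 (n = 3 each, SD), although its own TPM was not lower with PDBAG1. NDRG4 held 2.10% ± 0.116 and 0.696% ± 0.106, and NDRG2 0.157% ± 0.109 and 0.0631% ± 0.0234 (n = 3 each, SD). Among the members other than NDRG1 the make-up was alike in both groups, with NDRG3 at 93.85% ± 0.573 of their sum with vehicle and 93.91% ± 0.503 with PDBAG1 (n = 3 each, SD). The lower shares of NDRG2, NDRG3 and NDRG4 thus came with a larger sum and not with a lower mean TPM of these genes. Single libraries of NDRG2 and NDRG4 overlapped between groups.

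**Figure D2:**
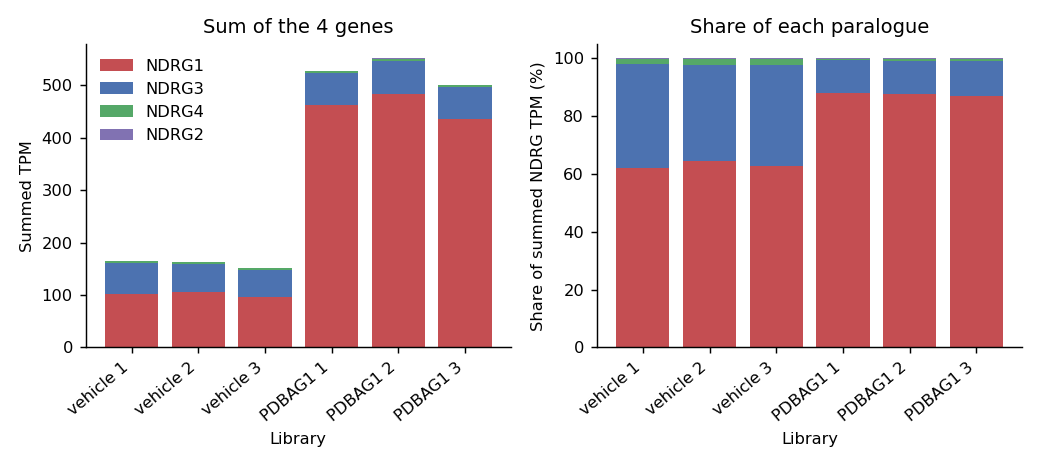
Stacked bars for each of the 6 libraries, with summed TPM of the 4 NDRG genes at left and the share of each paralogue in that sum, in percent, at right. The NDRG1 segment makes up 62.3% to 64.4% of the vehicle bars and 87.0% to 87.9% of the PDBAG1 bars, while the NDRG3 segment keeps nearly the same height in TPM.

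Genes with a pattern like that of NDRG1 and NDRG3, the members whose groups did not overlap, were found from log2(TPM + 1) centred on the vehicle mean. The measure was the root mean square difference over the 6 libraries. For NDRG1 it is dominated by the size of the difference between groups. For NDRG3 the spread within the vehicle group weighs as well, with centred values from -0.07 to 0.09 there and from 0.12 to 0.20 with PDBAG1. The nearest to NDRG1 were PTGS2, the inducible cyclooxygenase, at 0.10 and STC1, a secreted glycoprotein hormone, at 0.11. They were followed by BHLHE40, a transcriptional repressor, at 0.19, by FOS, an AP-1 subunit, at 0.25 and by PPFIA4, a liprin family protein, at 0.26. Their levels spanned a wide range, from 2.05 ± 0.254 TPM with vehicle for FOS to 35.6 ± 0.553 TPM for BHLHE40 (n = 3 each, SD), all below the 101 TPM of NDRG1.

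Around NDRG3 the profiles were denser. The 5 nearest genes were MAP3K8, a kinase upstream of ERK, NBEAL2, PYGL (liver glycogen phosphorylase), AZI2 and PIEZO1, a mechanosensitive ion channel, with root mean square differences of 0.01 to 0.02. PYGL was at 97.7 ± 5.34 and 109.5 ± 2.61 TPM and MAP3K8 at 9.27 ± 0.581 and 10.5 ± 0.393 TPM with vehicle and PDBAG1 (n = 3 each, SD). In NDRG3 and in these 5 genes the first vehicle library was the highest of the vehicle group, a likeness that the measure itself selects for. Within 2 times the distance of the fifth gene there were 148 genes around NDRG3 and 14 around NDRG1.

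**Figure D3:**
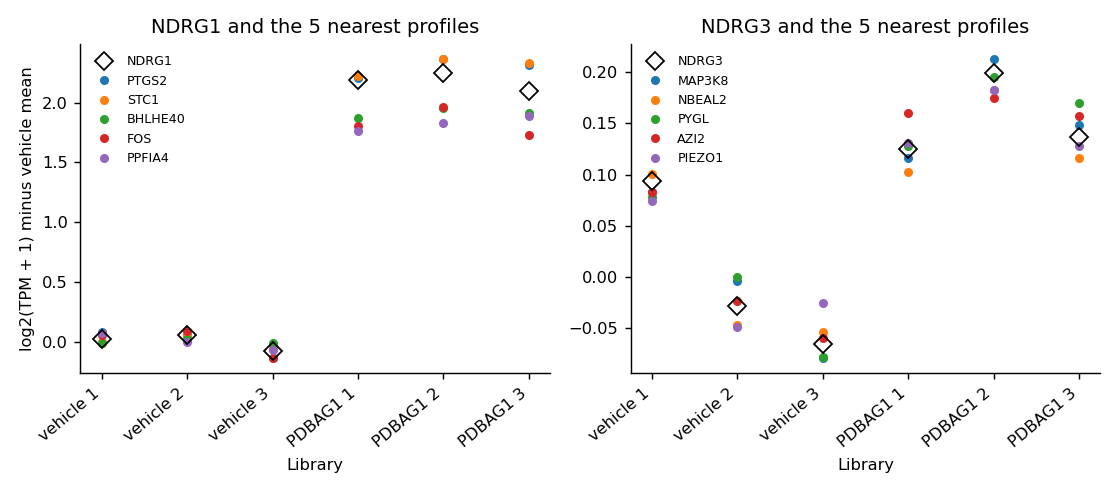
log2(TPM + 1) minus the vehicle mean in each library for NDRG1 (left) and NDRG3 (right), open black diamonds, and for the 5 genes nearest to each, coloured points. NDRG1 stands 2.10 to 2.25 above its vehicle mean in the PDBAG1 libraries, and the NDRG3 panel has a much narrower vertical scale.

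NDRG1 and NDRG2 are phosphorylated near their C-terminus by SGK kinases, and GSK3 kinases then act on the primed NDRG1 protein. Of 5 such kinase genes, 4 were tested, and 2 had higher levels at a limma adjusted p below 0.05, against 21.7% of all genes tested in that direction. The median log2 fold change of the list was 0.13, against 0.03 over all genes. SGK1 rose from 19.5 ± 1.26 to 25.5 ± 1.52 TPM (n = 3 each, SD). Its log2 difference was 0.37 with a standard error of 0.07 (limma adjusted p = 0.000844). GSK3B rose from 15.7 ± 0.970 to 19.2 ± 1.41 TPM (n = 3 each, SD), a log2 difference of 0.27 (limma adjusted p = 0.0110), but did not pass without vehicle replicate 3 (limma adjusted p = 0.0553), which left 1 kinase called. SGK3 and GSK3A had log2 fold changes of -0.01 each, and SGK2 was under 1 TPM in all libraries. None of the kinases approached the difference seen in NDRG1, the gene by which the family was chosen.

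Among 10 factors linked to NDRG transcription, 9 were in the table and tested. At the threshold (limma adjusted p below 0.05) 5 had higher and 1 had lower levels, where 21.7% of all genes tested were higher and 15.9% lower. The median log2 fold change was 0.15, against 0.03 over all genes. EGR1, an immediate early factor reported to bind the NDRG1 promoter, rose most, from 5.91 ± 0.639 to 14.3 ± 1.41 TPM (n = 3 each, SD). Its log2 difference was 1.14 with a standard error of 0.09 (limma adjusted p = 7.79e-07). EPAS1, the oxygen-regulated subunit of HIF-2, rose from 35.2 ± 0.946 to 52.7 ± 3.36 TPM (n = 3 each, SD), higher by 0.57 on the log2 scale, and AHR, a ligand-activated factor, had a log2 fold change of 0.40. ARNT, the partner that HIF and AHR proteins share, was higher by 0.32 on the log2 scale. That is its RNA, and the authors report less of the ARNT protein (HIF-1β) in this cell line with PDBAG1.

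HIF1A, the oxygen-regulated subunit of HIF-1, which is controlled mainly as a protein, had 355 ± 21.6 TPM with vehicle and 390 ± 19.5 TPM with PDBAG1 (n = 3 each, SD). Its groups overlapped. The log2 fold change was 0.13 (limma adjusted p = 0.0423), and the call was lost in 7 of 12 alternative fits, 4 of which left out 1 library: vehicle replicate 2 (limma adjusted p = 0.150), vehicle replicate 3 (limma adjusted p = 0.163), PDBAG1 replicate 2 (limma adjusted p = 0.0993) or PDBAG1 replicate 3 (limma adjusted p = 0.130). For the proteins, the authors report a marked rise of HIF-1α in this cell line with PDBAG1. They also report more HIF-2α, the product of EPAS1. MYC, a repressor of NDRG1 and NDRG2, was at 92.6 ± 0.698 and 88.6 ± 2.38 TPM (n = 3 each, SD), with a log2 fold change of -0.06 that did not pass the test (limma adjusted p = 0.274).

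The NDRG3 protein is set by oxygen and lactate, and of 6 genes of that axis, all tested, 4 had higher and 1 had lower levels at a limma adjusted p below 0.05, against 21.7% and 15.9% of all genes tested. The median log2 fold change was 0.21, against 0.03 over all genes. EGLN1, which encodes PHD2, rose from 28.8 ± 1.14 to 51.6 ± 2.70 TPM (n = 3 each, SD). Its log2 difference was 0.82 with a standard error of 0.06 (limma adjusted p = 1.75e-07). These are RNA levels, and the authors report from immunoblots that PDBAG1 lowered PHD2 protein. LDHA, which makes lactate from pyruvate, rose from 2469 to 2566 TPM in the vehicle libraries to 3615 to 3789 TPM in the PDBAG1 libraries, by 0.54 on the log2 scale (limma adjusted p = 3.48e-08). VHL was at 38.5 ± 2.63 and 45.5 ± 2.90 TPM (n = 3 each, SD), with a log2 fold change of 0.23 that passed the test (limma adjusted p = 0.0107) but not without vehicle replicate 3 (limma adjusted p = 0.0577). MAPK3, which encodes the kinase ERK1, rose by 0.19 on the log2 scale. The transcript of NDRG3 itself, at a log2 fold change of 0.15, lay below the values of EGLN1, VHL, LDHA and MAPK3.

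Of 7 genes for proteins linked to NDRG1, 6 were tested, 3 had higher and 1 had lower levels at a limma adjusted p below 0.05, where 21.7% and 15.9% of all genes tested did. The median log2 fold change was 0.07, against 0.03 over all genes. CD82, a tetraspanin known as a metastasis suppressor, rose from 96.2 ± 3.14 to 130 ± 4.60 TPM (n = 3 each, SD), a log2 difference of 0.43 (limma adjusted p = 7.22e-06). The log2 fold change of CTNNB1 (beta-catenin) was 0.19. HSPA8, the constitutive HSC70 chaperone, fell from 2566 ± 47.1 to 2153 ± 58.2 TPM (n = 3 each, SD), a log2 difference of -0.25 (limma adjusted p = 4.62e-05). E-cadherin, whose recycling NDRG1 takes part in, was below the limit for testing.

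NDRG1 belongs to a published 15-gene hypoxia signature, and the 14 genes that stand beside it were all tested. At the threshold (limma adjusted p below 0.05) 13 had higher and 1 had lower levels, against 21.7% and 15.9% of all genes tested, and 9 were higher by 1.5-fold or more, against 2.86%. Several of these genes were known to be higher in these libraries when the list was chosen. The median log2 fold change was 0.88, and that of NDRG1, the gene by which the family was chosen, was above all 14. The nearest were ANKRD37, an ankyrin repeat protein, with 1.64, BNIP3, a mitophagy receptor, with 1.20, PDK1, a kinase that inhibits pyruvate dehydrogenase, with 1.17 and P4HA1, a collagen prolyl hydroxylase subunit, with 1.08. BNIP3 rose from 184 ± 4.83 to 423 ± 17.6 TPM (n = 3 each, SD; standard error of the log2 value 0.04, limma adjusted p = 2.51e-10). ADM, which encodes the vasodilator adrenomedullin, was the 1 gene that was lower, with a log2 fold change of -0.28. From their RNA-seq the authors report a hypoxia response. Yet they describe glycolysis-related HIF-1α targets in this cell line as slightly higher or even lower, and PDK1 is among their PCR primers.

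**Figure D4:**
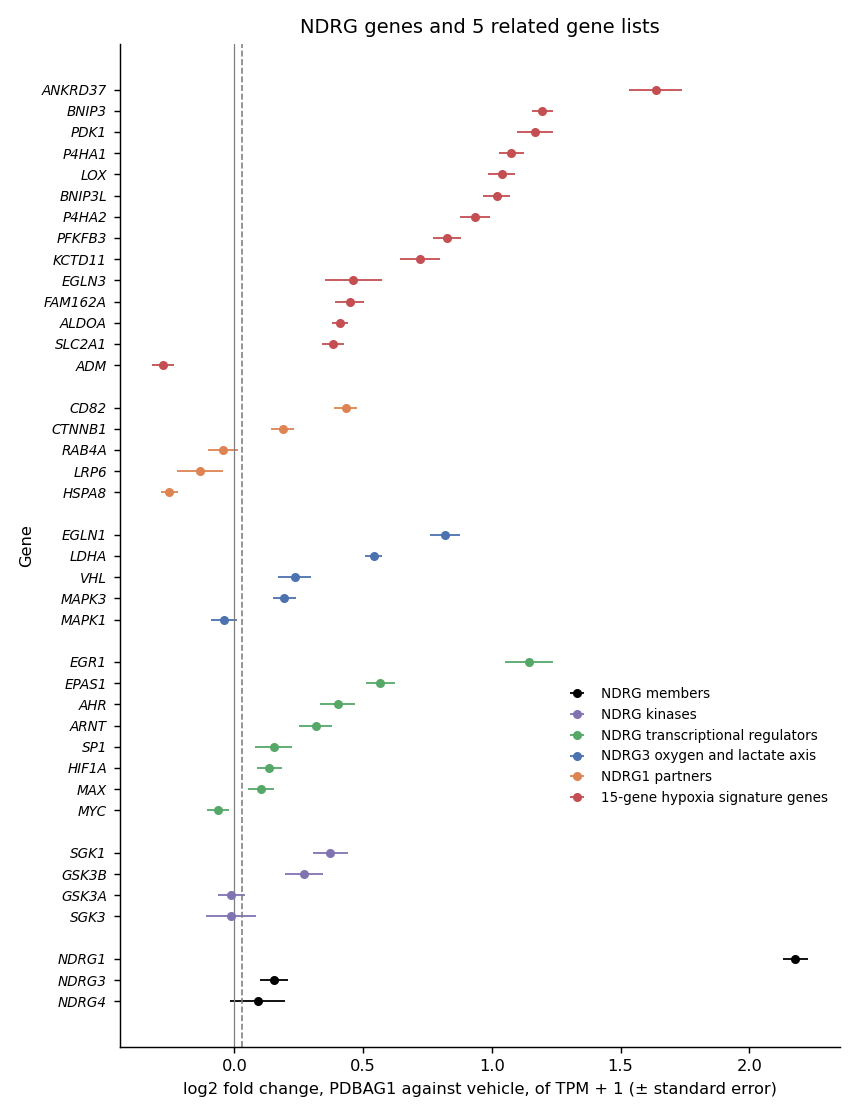
log2 fold change of PDBAG1 against vehicle on the log2(TPM + 1) scale, with its standard error, for the 3 NDRG genes tested (black) and the tested genes reported of 5 related lists, with a solid line at 0 and a dashed line at 0.03, the median of all genes tested. NDRG1, at 2.18, lies to the right of every other gene shown, and NDRG3 and NDRG4 lie near the dashed line.

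Position was not used in choosing the family, so the 3 nearest protein-coding genes on each side of each member were set beside it. Of these 24 neighbours, 21 were in the table and 13 were tested. At a limma adjusted p under 0.05, 1 was higher and 4 were lower, against 21.7% and 15.9% of all genes tested. In either direction 37.6% of all genes tested passed, close to the share of these neighbours. The neighbours called were mostly lower, whereas more of all genes were higher than lower. The median log2 fold change was 0.02, against 0.03 over all genes. Next to NDRG1 the 3 genes on the lower-coordinate side, CCN4, TG and SLA, did not reach 1 TPM in 3 libraries. On the other side, ST3GAL1, a sialyltransferase 153 kb away, rose from 18.7 ± 1.13 to 29.3 ± 1.01 TPM (n = 3 each, SD). Its log2 difference was 0.62 with a standard error of 0.06 (limma adjusted p = 6.81e-06). ZFAT and KHDRBS3, at 1176 and 2155 kb, had log2 fold changes of 0.09 and -0.08 and did not pass.

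The neighbours of NDRG3 that passed were lower. DSN1, a kinetochore protein whose gene lies 5.70 kb away, fell from 95.6 ± 3.96 to 73.3 ± 5.38 TPM (n = 3 each, SD), a log2 difference of -0.38 (limma adjusted p = 0.000159), and RAB5IF fell by 0.17 on the log2 scale. Beside NDRG4, GINS3, a subunit of the replicative helicase, fell by 0.41 on the log2 scale (limma adjusted p = 0.00120). SETD6, a lysine methyltransferase 1.85 kb from NDRG4, was at 12.3 ± 1.57 and 9.40 ± 1.63 TPM (n = 3 each, SD). Its groups overlapped, and its log2 fold change of -0.36 (limma adjusted p = 0.0255) did not pass without vehicle replicate 1 (limma adjusted p = 0.0821), without vehicle replicate 2 (limma adjusted p = 0.0755) or without PDBAG1 replicate 1 (limma adjusted p = 0.0874). The tested neighbours of NDRG2 were ARHGEF40, which overlaps it, and ZNF219, with log2 fold changes of 0.14 and 0.08, neither past the threshold.

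**Figure D5:**
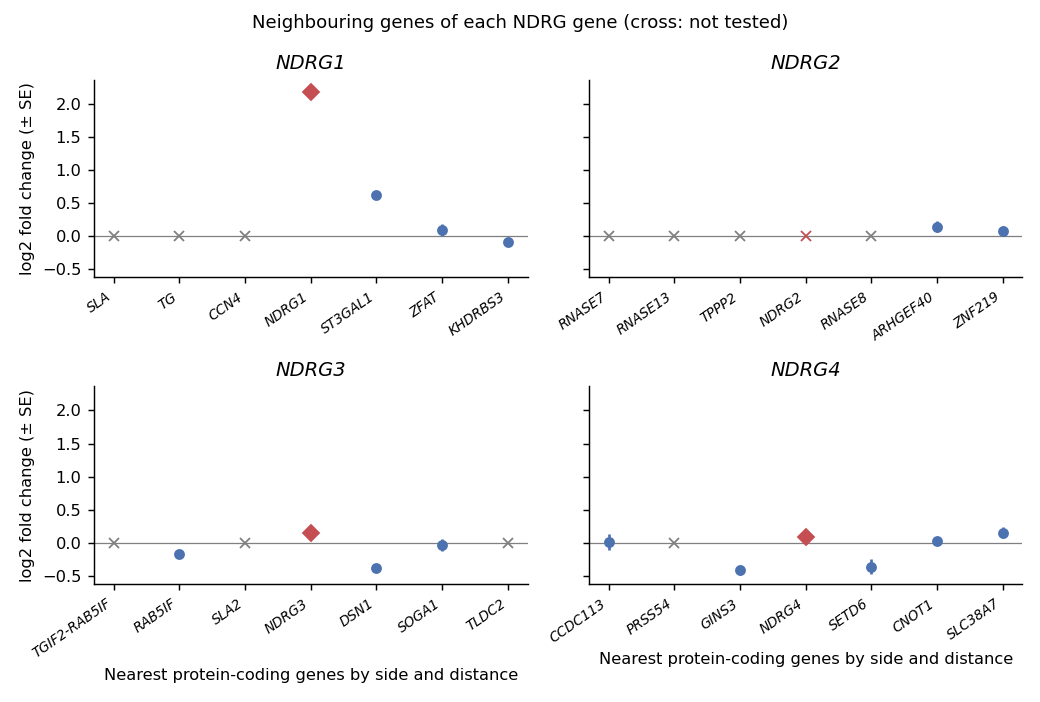
log2 fold change, with its standard error, of each NDRG gene (red diamond) and of the 3 nearest protein-coding genes on each side (blue points), ordered by side and distance, with crosses for genes not tested. ST3GAL1, at 0.62, is the neighbour with the highest value, and no neighbour comes near the 2.18 of NDRG1.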

How the data were processed

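Bulk RNA-seq libraries of vehicle-treated and PDBAG1-treated MDA-MB-231 cells were analysed, 3 per group. In the methods, the authors describe sequencing by BGI on a BGISEQ instrument, mapping of reads with HISAT2 to GRCh38.p13 and normalisation of gene counts to FPKM. The submitters' processing notes name HISAT2 2.0.4, Bowtie2 2.2.5, RSEM 1.2.12 and GRCh38.p12, and the labels mention Illumina protocols. The values the authors deposited are TPM with 2 decimals, summing to 1000000 in each library within rounding. The annotation release is not given in the sources used here. TPM keeps no depth, so precision rests on the libraries.

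Genes that reached 1 TPM in at least 3 of the 6 libraries entered the test, on log2(TPM + 1) in R 4.3.3 with limma 3.58.1 (lmFit, eBayes with trend), with Benjamini-Hochberg adjustment over all 12582 genes. Calls were made at an adjusted p under 0.05, with or without a 1.5-fold limit. The limma fit, but not the other steps, was tested on simulated data. Of the genes, 17212 matched GENCODE v44 by Ensembl identifier. The members and lists were chosen with earlier results of these data known. MYCN was not analysed here. Some genes of the lists are counted but not reported here by name.

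Named were the 4 members, called genes of each list (up to 4 by size of change), SGK1, HIF1A, MYC, EGLN1, VHL and LDHA, the nearest tested neighbour on each side and called neighbours, and the 5 genes nearest in profile to each member whose groups did not overlap. ADM, ZNF219, GSK3A, SGK2, SGK3, CDH1, CCN4, TG, SLA, ZFAT and KHDRBS3 were named after their values were seen. Alternatives were other filters, a pseudocount of 0.1, median-of-ratios scaling, quantile normalization, a replicate block, each library left out, and fold limits of 2 or none. A count test could not be run on TPM.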

Additional observations from a re-analysis of the deposited data

How the results depend on the processing

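The log2 fold change of NDRG1 ranged from 2.14 to 2.22 over the 12 alternatives, and its share of summed NDRG TPM differed between groups by 23.9 to 25.0 percentage points with each library left out. NDRG2 moved from 0.09 to 0.37 with a pseudocount of 0.1, since its values are under 1 TPM, and could not be given under the filter on every library or quantile normalization. The 420 called genes became 80 with a fold limit of 2 and 4736 with no limit (2736 higher, 2000 lower), and 630 with a pseudocount of 0.1. Under quantile normalization 75.3% of the calls were higher, against 85.7%. The called kinases numbered 1 to 2 with each library left out. No scaling moved the median of all genes by over 0.1 on the log2 scale. Adding a replicate block to the model gave 427 called genes with the 1.5-fold limit, all 420 among them. At the adjusted p alone, the calls on NDRG3 and HIF1A were lost under the block. Deviations from the group means were not shared by number (correlation -0.21, 0.01 and -0.08 for replicates 1, 2 and 3), and nothing in the labels says that the numbers pair them. The cause of these changes was not tested, and with no depth given no counting error could be set beside any value.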
